A study of Macaca mulatta with 14 samples.

Results

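The comparison set 4 mature rhesus macaque testes against 3 peripubertal ones, across every miRNA name in the deposited table. It used 8 of the 14 small RNA libraries and 7 of the 12 animals of the series. The mature animals were 2355, 2570, 8104 and 9518 days old, and each gave 1 library. The peripubertal animals were 1135, 1205 and 1487 days old. The animal of 1487 days gave 2 technical libraries, which were averaged and counted once. The 5 remaining animals, 16 to 739 days old, form an immature group that enters the model and is quoted as background. All were males with no treatment named, described in the labels as healthy until a sudden death, and the tissue was testis dissected after death and frozen. The labels give ages but no stages, so the boundaries between the groups were set for this work. No testis weight, hormone level or histology was used to place an animal. The organism and tissue labels name the rhesus macaque, while the free-text descriptions call the individuals human. The species was taken from the former.

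Puberty turns a testis that holds mainly Sertoli cells, interstitial cells and spermatogonia into one in which meiotic cells and spermatids make up much of the tissue. miR-34b/c and miR-449, called the miR-34 and miR-449 family here, share a seed sequence in a single arm of each hairpin. The label covers every listed arm, so not all of its names carry that seed. These miRNAs are encoded in 2 separate clusters, and are known from meiotic and later germ cells and from cells with motile cilia. Mice that lack both clusters are infertile. A miRNA level in whole testis depends on which cells are present as well as on what each cell makes. Fewer cells of a type and less RNA per cell cannot be told apart in such samples.

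The 8 libraries held 3369245 to 5620503 reads behind the deposited scaling. Values are RPM, reads scaled to a fixed total per library, and 3 reads correspond to 0.534 to 0.890 RPM. The listed miRNAs took 13.01%, 16.5% and 28.1% of all reads at 1135, 1205 and 1487 days. They took 33.7%, 14.9%, 9.00% and 18.1% at 2355, 2570, 8104 and 9518 days. Peripubertal testes had a mean share of 19.2% ± 7.91 (SD, n = 3). For mature testes it was 18.9% ± 10.5 (SD, n = 4). The 2 groups overlapped, with a difference of -0.298 percentage points (exact permutation test, two-sided, p = 1, where 35 splits allow no p under 0.0571). Because this share ranged widely within both groups, the counts of calls, the called names and the main lists are given on the deposited scale and also after median scaling, in which each library is divided by its own median over the 276 names seen in all libraries. The median log2 fold change over the 322 names tested was -0.06 on the deposited scale and 0.14 after median scaling.

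The peripubertal animals were not alike, and this bears on every result. After median scaling, the median absolute log2 difference over the 153 names with a mean of at least 10 RPM was 0.65 between the animals of 1135 and 1205 days and 0.55 between those of 1135 and 1487 days. The youngest animal differed less from the mature animals, by 0.42 to 0.50. The animals of 1205 and 1487 days differed from each other by 0.44 and from the mature animals by 0.64 to 0.82. Mature animals differed among themselves by 0.30 to 0.52, and the technical libraries of the animal of 1487 days by 0.21. The animal of 1135 days lay nearer the mature mean than the mean of the other peripubertal animals for 113 of those 153 names (73.9%) on the deposited scale, and for 101 (66.0%) after median scaling. It was kept in the peripubertal group, where its age puts it.

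**Figure D1:**
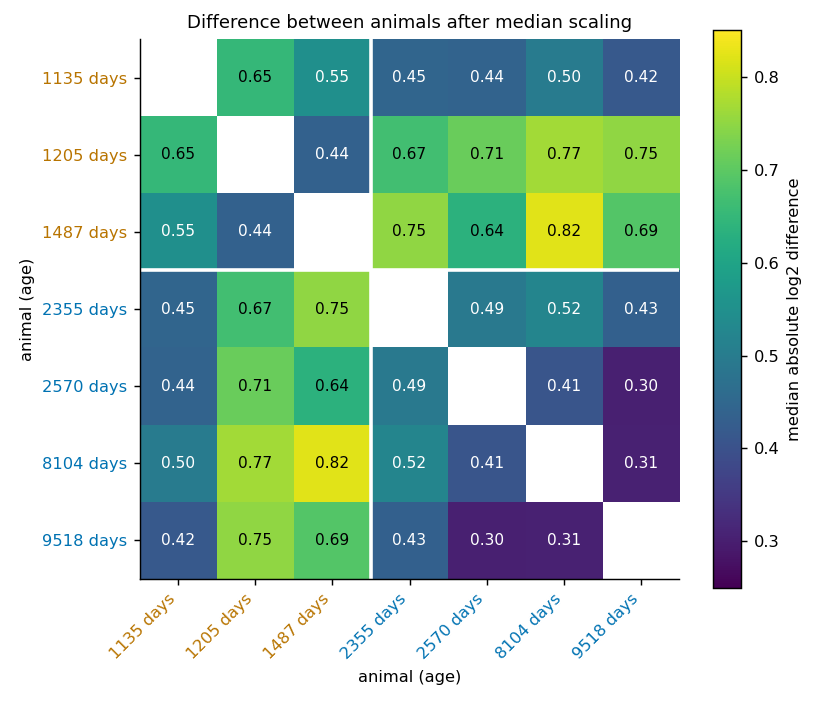
Median absolute log2 difference between each pair of the 7 animals after median scaling, over 153 names with a mean of at least 10 RPM; both axes list animals by age, peripubertal in orange and mature in blue. The animal of 1135 days sits closer to the 4 mature animals (0.42 to 0.50) than to the animals of 1205 and 1487 days (0.65 and 0.55).

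In mature testis 14 miRNAs were higher than in peripubertal testis and none passed the test as lower. All 6 names of the miR-34 and miR-449 family were among the 14, with log2 fold changes of 1.28 to 4.84. The other 8 were miR-375, miR-760, miR-429, miR-129-5p and 4 miRNAs of C19MC, a primate-specific imprinted cluster known from placenta: miR-520a-3p, miR-520b, miR-519c-3p and miR-520a-5p. A miRNA is called here at a Benjamini-Hochberg adjusted p under 0.05 in limma, over 322 names with at least 1 RPM in at least 3 animals. The calls are 4.35% of the names tested for higher and 0% for lower. At an unadjusted p under 0.05, 29 names were higher and 4 were lower. The lowest adjusted p of any name lower in mature testis was 0.272 in limma. For lower names edgeR made 1 call with TMM scaling and 0 without it, and DESeq2 made 14. Of the 6 names of the miR-34 and miR-449 family, edgeR with TMM and DESeq2 each called 0 higher. Without TMM, edgeR called 0 names higher.

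The calls rest on few animals and mostly on scarce miRNAs. In all 14 every mature animal was above every immature animal, a count that was not made over all names tested. In 13 of the 14 every mature animal was also above every peripubertal animal. The exception was miR-520a-5p. Groups without overlap were seen for 31 of the 322 names in the higher direction (9.63%) and for 4 in the lower (1.24%). The mean over the 7 animals was under 10 RPM for 10 of the 14. Without the mature animals 5 of the 14 would have passed the filter, against 292 of all 322 names tested. In the miR-34 and miR-449 family 3 of the 6 names would have passed without them. Only 1 of the 6 reached 1 RPM in all 3 peripubertal animals. The calls, and for most of the 14 also the filter, select high mature values. Their lack of overlap with the other groups is therefore not separate support. Leaving out the animal of 1205 days or that of 1487 days left 0 calls, with lowest adjusted p-values of 0.0807 and 0.0664 in limma. Leaving out any of the other animals left 10 to 13 calls higher, all of them among the 14. The libraries numbered 1 to 7 alone gave 0 calls, and those numbered 8 to 14 gave 9. The first set holds the peripubertal animals of 1135 and 1487 days and the mature ones of 2570 and 9518 days. The second holds the peripubertal animals of 1205 and 1487 days and the mature ones of 2355 and 8104 days. The sets thus share the animal of 1487 days and are not independent.

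After median scaling 18 names were called higher (5.59%) and 2 lower (0.621%). Of the 14 names called on the deposited scale, 13 were among the 18; the exception was miR-34c-5p. Non-overlapping groups rose to 49 names higher (15.2%) and 23 lower (7.14%). Without the animal of 8104 days the counts on this scale fell to 4 higher and 0 lower. Without 1487 days they were 1 and 0, and without 1205 days 2 and 0. Without 1135 days they were 39 and 12, and without 2355 days 23 and 5. Without 9518 days they were 12 and 0. The libraries numbered 1 to 7 gave 0 and 0, and those numbered 8 to 14 gave 33 and 8.

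**Figure D2:**
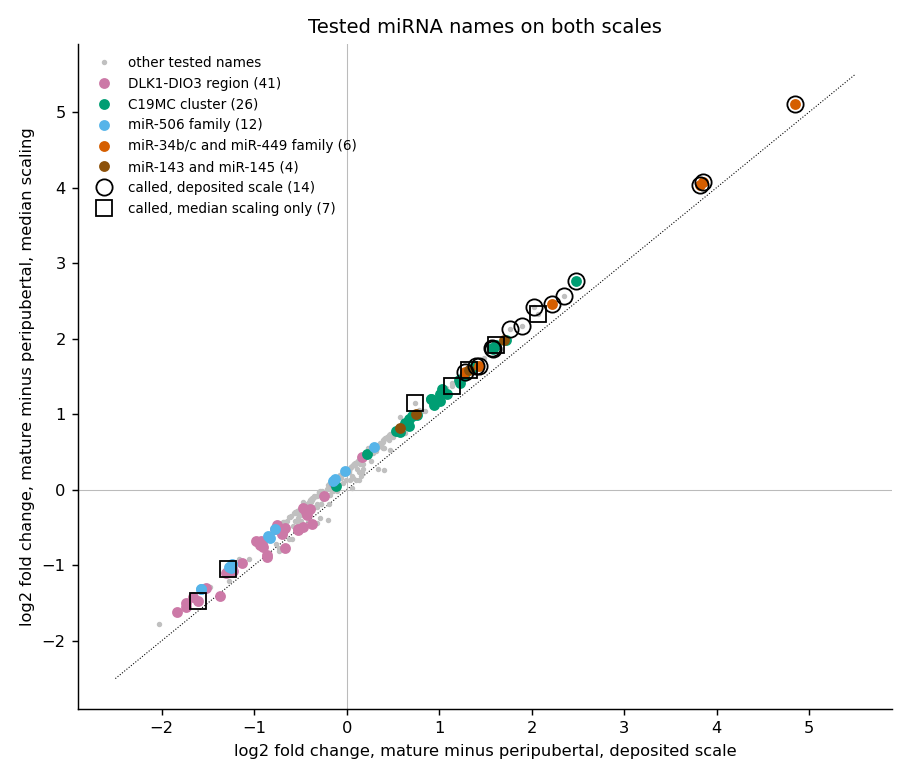
Log2 fold change (mature minus peripubertal) of the 322 tested names on the deposited scale (x axis) and after median scaling (y axis), with 5 lists coloured, circles for the 14 names called on the deposited scale and squares for the 7 called only after median scaling; the dotted line marks equal values. The 6 members of the miR-34 and miR-449 family reach from 1.28 to 4.84 on the x axis, and the median over all names is -0.06 on the x axis and 0.14 on the y axis.

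The most abundant of the 14 was miR-34c-5p, the main arm of the miR-34c hairpin. Its level was 7887 RPM at 1135 days, 349 at 1205 days and 144.4 at 1487 days. In mature testis it was 37698, 15138, 21515 and 16320 RPM at 2355, 2570, 8104 and 9518 days. Every mature animal was higher than every peripubertal one, and on the log2 scale the youngest peripubertal animal lay closer to the mature animals than to the other two. The log2 fold change was 4.84 with a standard error of 1.08 (limma, adjusted p = 0.00891). After median scaling it was 5.10 with a standard error of 1.88 (limma, adjusted p = 0.122), so the name was not called on that scale although the groups still did not overlap. There the peripubertal values were 16540, 401 and 119, and the mature values 30252, 25452, 61509 and 21869. When the youngest was left out, miR-34c-5p rose by 6.55 on the deposited scale (limma, adjusted p = 2.7e-06). Without 1487 days the value was 3.67 (adjusted p = 0.118) and without 1205 days 4.30 (adjusted p = 0.104), both in limma. Within libraries 1 to 7 it was 4.01 (adjusted p = 0.699) and within libraries 8 to 14 it was 6.85 (adjusted p = 3.16e-09), again in limma. Both sets are small and include the animal of 1487 days, and the second lacks that of 1135 days.

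As a share of all listed miRNA reads, miR-34c-5p took 11.2% at 2355 days (95% Wilson interval 11.1 to 11.2), 10.2% at 2570 days (10.1 to 10.2), 23.9% at 8104 days (23.8 to 24.0) and 9.03% at 9518 days (8.97 to 9.09). It took 6.06% at 1135 days (6.01 to 6.12) and 0.211% at 1205 days (0.201 to 0.222). The 2 libraries of the animal of 1487 days gave 0.0419% and 0.0628%. These intervals cover counting error only, because PCR reads without molecular identifiers are not independent molecules. In mature testis miR-34c-5p was thus among the 5 most abundant miRNAs, beside let-7f, let-7g, let-7a and let-7c, and in the peripubertal group it was not. Immature animals ranged from 49.9 to 985 RPM. The step from immature to peripubertal testis was 2.43 with a standard error of 1.03 on the log2 scale (limma, adjusted p = 0.302). The difference between the later and the earlier step, 2.41 with a standard error of 1.89, was not resolved (limma, adjusted p = 0.945).

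The partners of miR-34c-5p from the same cluster were at lower levels, and in each of them the animal of 1135 days was the highest of the peripubertal animals. miR-34b*, an arm of the miR-34b hairpin, was at 22.4, 1.07 and 0.280 RPM at 1135, 1205 and 1487 days and at 121, 33.6, 57.6 and 42.8 RPM at 2355, 2570, 8104 and 9518 days. Its log2 fold change was 3.86 with a standard error of 0.76 (limma, adjusted p = 0.00393). It was 4.08 with a standard error of 0.95 after median scaling (limma, adjusted p = 0.0195). The other arm, miR-34b, was at 4.22 RPM at 1135 days, was not seen at 1205 or 1487 days, and was at 5.34, 6.79, 9.43 and 7.18 RPM in the mature animals in order of age. It rose by 2.22 with a standard error of 0.49 (limma, adjusted p = 0.00706), and by 2.46 with a standard error of 0.68 after median scaling (limma, adjusted p = 0.0402). On the latter scale its groups overlapped, with the animal of 1135 days above that of 2355 days. miR-34c-3p, the scarce arm of miR-34c, was at 0.550 RPM at 1135 days, at 0 in the other peripubertal animals, and at 2.37, 1.75, 1.96 and 1.30 RPM in the mature ones. Only 3 reads stood behind its value at 1135 days and 6 to 11 behind each mature value. Its log2 fold change was 1.28 with a standard error of 0.34 (limma, adjusted p = 0.0197), and 1.55 with a standard error of 0.37 on the median-scaled values (limma, adjusted p = 0.0199). In the macaque RefSeq annotation MIR34B and MIR34C are direct neighbours, between BTG4 and HOATZ.

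The miR-449 cluster is encoded elsewhere, with MIR449A beside MIR449B between GPX8 and MCIDAS, a regulator of multiciliated cells. miR-449a was at 24.6, 2.57 and 0.558 RPM in the peripubertal animals in order of age, and at 157, 43.1, 58.7 and 69.4 RPM in the mature ones. The lowest mature value, at 2570 days, was above the highest peripubertal value, at 1135 days. The log2 fold change of miR-449a was 3.82 with a standard error of 0.76 (limma, adjusted p = 0.00393), and 4.04 with a standard error of 0.94 after median scaling (limma, adjusted p = 0.0195). miR-449b was at 0.734 RPM at 1135 days and at 0 in the other peripubertal animals, against 6.23, 0.776, 2.67 and 1.30 RPM. Its groups nearly met, since 4 reads were counted both at 1135 days and at 2570 days. Its log2 fold change was 1.43 with a standard error of 0.41 (limma, adjusted p = 0.0343), and 1.64 with a standard error of 0.44 on the median-scaled values (limma, adjusted p = 0.0396). On the median-scaled values the groups of miR-449b overlapped. miR-34a, a relative with a gene of its own, stayed at 0.856 to 2.75 RPM in peripubertal and 1.25 to 5.94 RPM in mature testis, and its value of 0.52 with a standard error of 0.49 did not pass the test (limma, adjusted p = 0.819).

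**Figure D3:**
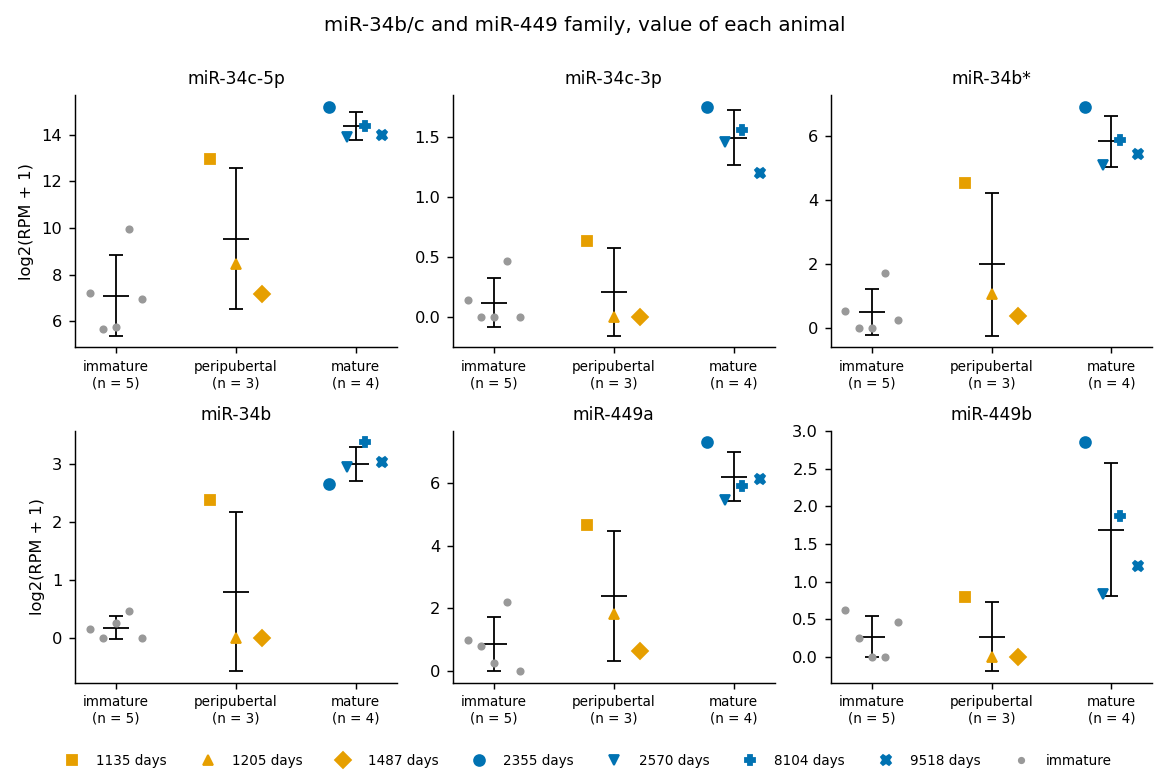
Level of the 6 miR-34b/c and miR-449 names in every animal as log2(RPM + 1), grouped by stage (immature n = 5, peripubertal n = 3, mature n = 4); each marker is 1 animal, black bars are the mean and SD, and the y axes differ between panels. In each panel the 4 mature animals lie above the peripubertal animals, and the animal of 1135 days (orange square) is the highest of the 3 peripubertal ones.

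Proportions within the family were compared by reads. miR-34c-5p held 99.0% to 99.4% of the reads of the 6 family names in the 3 peripubertal animals and 99.2% to 99.4% in the 4 mature animals. The ratio of miR-34c-5p to miR-34b* reads was 312 to 451 in mature testis and 352 at 1135 days. At 1205 and 1487 days it was 326 and 517, from 5 and 3 reads of miR-34b*. The ratio of miR-34c-5p to miR-449a reads was 235 to 366 in mature testis and 136, 258 and 321 at 1205, 1487 and 1135 days, while miR-34c-5p itself ranged from 144.4 to 37698 RPM. Other proportions varied more between animals. The ratio of miR-34b* to miR-34b reads was 22.6 at 2355 days, 4.94 to 6.11 in the other mature animals and 5.30 at 1135 days. The ratio of miR-449a to miR-449b reads was 22 to 55.5 in mature testis and 33.5 at 1135 days, from 4 to 21 reads of miR-449b. Reads of different small RNAs are ligated and amplified with different efficiency, so these ratios compare animals and not the amounts of the miRNAs.

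Of the called names outside the family, miR-375, known from pancreatic islets, was at 6.42, 1.28 and 0.387 RPM in the peripubertal animals in order of age and at 21.4, 8.15, 13.7 and 13.9 RPM in the mature ones. Its animals had the same pattern as the family, with the one of 1135 days just below the lowest mature animal. The log2 fold change was 2.35 with a standard error of 0.55 (limma, adjusted p = 0.00891), and 2.57 with a standard error of 0.60 after median scaling (limma, adjusted p = 0.0195). miR-429, of the miR-200 family known from epithelia, was at 2.39, 0.428 and 0.577 RPM against 8.61, 5.24, 5.87 and 6.09 RPM. It rose by 1.90 with a standard error of 0.46 (limma, adjusted p = 0.00891), and by 2.16 with a standard error of 0.48 after median scaling (limma, adjusted p = 0.0195). Its genomic neighbour miR-200a was at 7.16, 8.78 and 7.20 RPM against 55.5, 19.6, 15.1 and 17.6 RPM, with no overlap between the groups. Its value of 1.49 with a standard error of 0.65 did not pass the test (limma, adjusted p = 0.361), nor did the value of 1.75 after median scaling (limma, adjusted p = 0.0577).

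For miR-760 and miR-129-5p the animal of 1135 days did not stand near the mature animals. miR-760 was at 0.550, 0.214 and 0.964 RPM in the peripubertal animals and at 5.05, 6.60, 3.02 and 7.61 RPM in the mature ones. It rose by 2.03 with a standard error of 0.46 (limma, adjusted p = 0.00706), and by 2.42 with a standard error of 0.39 after median scaling (limma, adjusted p = 0.00437), the lowest adjusted p on that scale. miR-129-5p, best known from neurons, was at 0.183, 0.856 and 0.470 RPM against 4.45, 2.52, 1.42 and 12.8 RPM. Its log2 fold change was 1.77 with a standard error of 0.48 (limma, adjusted p = 0.0252), and 2.13 with a standard error of 0.42 on the median-scaled values (limma, adjusted p = 0.0099). These were also the names of the 14 that edgeR with TMM called, while edgeR without TMM called none of the 14. In 12 of the 14 called names the animal of 1135 days was the highest of the peripubertal animals, a count that was not made over all names tested. The others were miR-760 and miR-129-5p. Being the highest did not always place it near the mature animals. On the log2 scale, miR-520b lay 0.20 of the way from the mean of the other peripubertal animals to the mature mean. The place of miR-519c-3p was 0.23, that of miR-34c-3p 0.42 and that of miR-449b 0.47.

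**Figure D4:**
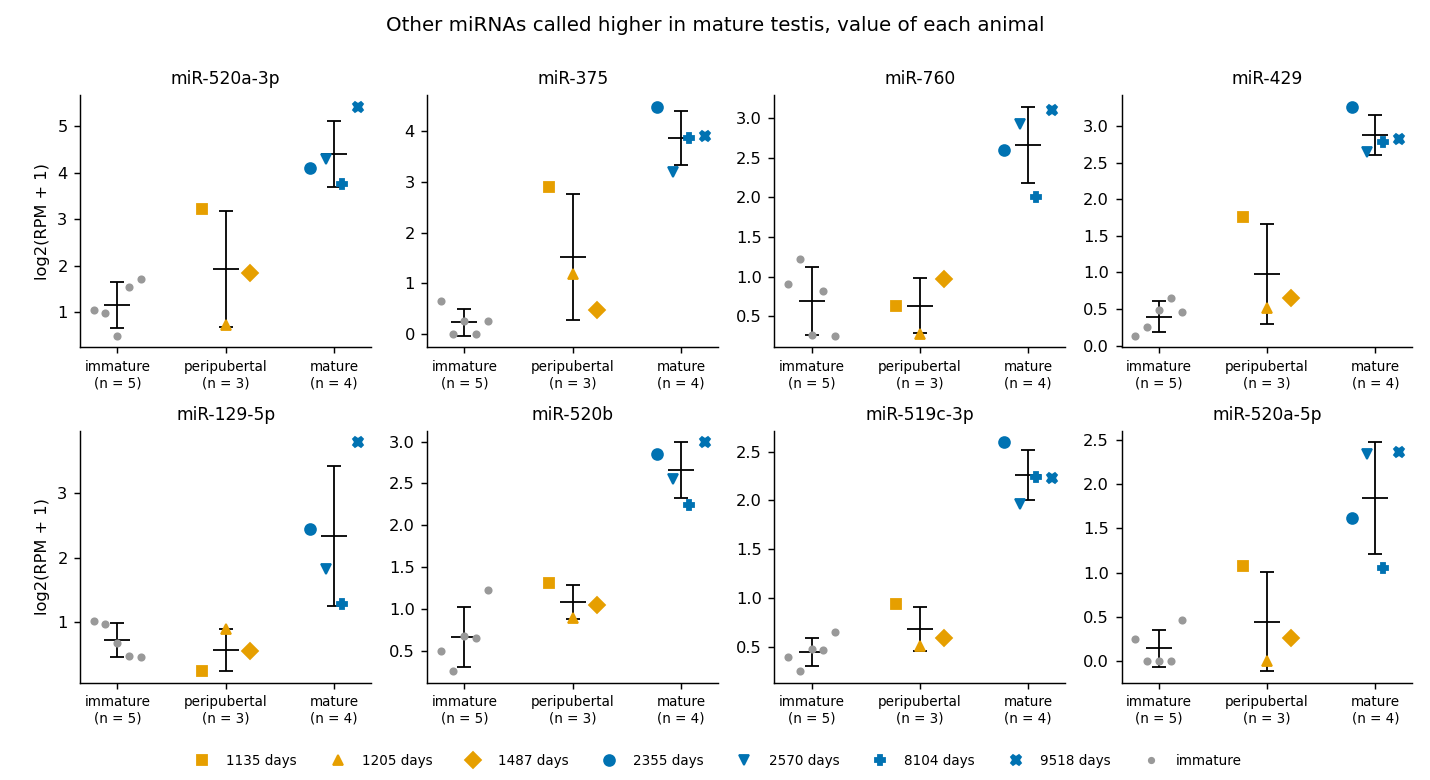
Level of the 8 other called miRNAs in every animal as log2(RPM + 1), with 1 marker per animal, black bars for the mean and SD, and y axes that differ between panels (immature n = 5, peripubertal n = 3, mature n = 4). The mature animals lie above all others except for miR-520a-5p, in which the animal of 8104 days (1.07 RPM) and that of 1135 days (1.10 RPM) meet.

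Most C19MC names had a higher mean in mature testis, and few of them passed the test. Over all 322 names tested, 164 had a higher mean in the mature animals and 158 a lower one. Of the 51 C19MC names, 43 had a higher mean and 6 a lower one, and 2 were at 0 in all 7 animals. The 51 include scarce names that were not tested, so these counts and those over the tested names cover unlike sets. Of the 26 that passed the filter, 13 would have done so without the mature animals, against 292 of all 322 names tested. The 26 had a median log2 fold change of 1.01 against -0.06 over all names tested. Of these 26, 4 were called higher and 0 lower, with 16 higher at an unadjusted p under 0.05 in limma. Over all 322 names the counts were 14, 0 and 29. Of the 26, edgeR with TMM called 0 and DESeq2 called 3 higher, against 3 and 8 over all names. The summed level was 132, 95.3 and 109 RPM at 1135, 1205 and 1487 days, and 436, 259, 195 and 418 RPM at 2355, 2570, 8104 and 9518 days. The lowest mature animal was thus above the highest peripubertal one. After median scaling the sums were 276, 109 and 89.9 against 350, 436, 556 and 560. On that scale the median was 1.23 and 5 names were called higher, against 18 of all 322 names. Members of this cluster are similar in sequence and can share reads, so their separate values are uncertain. miR-527 and miR-520d-5p had equal reads in every library, as did miR-519e and miR-520f. The counts of names therefore hold some reads more than once.

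Among the called C19MC members miR-520a-3p was the most abundant. It was at 8.26, 0.642 and 2.56 RPM in the peripubertal animals in order of age and at 16.3, 18.6, 12.6 and 42.0 RPM in the mature ones. It rose by 2.48 with a standard error of 0.62 (limma, adjusted p = 0.013), and its groups overlapped after median scaling. Its other arm, miR-520a-5p, was at 1.10, 0 and 0.193 RPM against 2.08, 4.07, 1.07 and 4.13 RPM, with a log2 fold change of 1.40 (limma, adjusted p = 0.0306). miR-520b and miR-519c-3p rose by 1.58 each and stayed under 7 RPM in every mature animal. The most abundant member, miR-1323, was at 57.8, 34.04 and 42.8 RPM against 222, 108, 86.3 and 221 RPM. Its groups did not overlap, but its log2 fold change of 1.72 with a standard error of 0.68 did not pass the test (limma, adjusted p = 0.272), nor did the value of 1.98 after median scaling (limma, adjusted p = 0.0606). Leaving out the animal of 1205 or 1487 days left 0 called members on both scales. Leaving out 2570 days left 2 and leaving out 9518 days left 1 on the deposited scale. After median scaling, leaving out 8104 days left 1, and leaving out 2570 or 9518 days left 3. On that scale leaving out 2355 days gave 8. Leaving out 1135 days gave 15, among them miR-527 and miR-520d-5p with their equal reads.

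miRNAs of the imprinted DLK1-DIO3 region, a large maternally expressed cluster, were lower in most names without passing the test on the deposited scale. Of 59 names, 53 had a lower mean in the mature animals and 4 a higher one, against 158 and 164 of all 322 names tested. The 59 include scarce names that were not tested, so the sets compared are unlike. Of the 41 tested, 0 were called in either direction and the median log2 fold change was -0.86. At an unadjusted p under 0.05 in limma 3 of the 41 were lower, against 4 of all 322 names. DESeq2 called 5 of the 41 lower, against 14 over all names. The summed level was 292, 832 and 1175 RPM at 1135, 1205 and 1487 days and 688, 203, 145 and 257 RPM at 2355, 2570, 8104 and 9518 days. The groups overlapped, with the animal of 1135 days low among the peripubertal animals and that of 2355 days high among the mature ones. After median scaling the sums were 611, 956 and 969 against 552, 341, 415 and 345, which do not overlap. On that scale the median was -0.68 and 1 name of the region was called lower, against 2 of all 322 names.

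That name was miR-136. On the deposited scale it was at 6.05, 15.6 and 12.997 RPM in the peripubertal animals and at 6.23, 4.66, 1.42 and 1.30 RPM in the mature ones. After median scaling it was 12.7, 17.96 and 10.7 against 5.002, 7.83, 4.07 and 1.75, and it fell by 1.47 with a standard error of 0.41 (limma, adjusted p = 0.0402). miR-127-3p, an abundant member of the region, was at 48.4, 230 and 191 RPM against 141.9, 22.1, 14.2 and 44.4 RPM, with a value of -1.74 and a standard error of 0.91 that did not pass the test (limma, adjusted p = 0.523). miR-543, miR-495 and miR-299-3p had values of -1.83, -1.74 and -1.66 with limma adjusted p-values of 0.408, 0.408 and 0.563. The call of miR-136 was lost without the animal of 1205, 1487, 8104 or 9518 days. Leaving out 1487 days moved the median of the 41 names to -0.33 on the deposited scale and to -0.45 after median scaling.

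The other name called lower after median scaling was miR-199a-5p, of the miR-199 and miR-214 genes known from mesenchymal cells. It was at 31.7, 62.9 and 96.9 RPM in the peripubertal animals in order of age and at 41.6, 26.0, 10.1 and 25.7 RPM in the mature ones. After median scaling the values were 66.6, 72.3 and 79.9 against 33.3, 43.7, 29.0 and 34.4, a change of -1.05 with a standard error of 0.29 (limma, adjusted p = 0.0402). The call was lost without the animal of 1205, 1487, 8104 or 9518 days, with limma adjusted p-values of 0.0933 to 0.191. It was also the 1 name that edgeR with TMM called lower. miR-199a-3p, which cannot be told from miR-199b-3p in these reads, was among the most abundant miRNAs of the peripubertal group at 8560, 14831 and 31849 RPM. It was at 12559, 10142, 3948 and 8795 RPM in the mature animals, and its value of -0.97 with a standard error of 0.74 did not pass the test (limma, adjusted p = 0.774). All 5 names of this list had a lower mean in mature testis, against 158 of all 322 names tested. The median log2 fold change of the 5 was -0.97 on the deposited scale and -0.70 after median scaling.

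The lowest fold change of an abundant name was that of miR-181d, at 28.1, 357 and 287 RPM in the peripubertal animals in order of age and at 92.01, 24.4, 12.99 and 46.1 RPM in the mature ones. The animal of 1135 days lay inside the mature range and the other two far above it. The value was -2.03 with a standard error of 0.80 (limma, adjusted p = 0.272). With the youngest left out it was -3.19 and was called (limma, adjusted p = 0.0135). In miR-513b too the animal of 1135 days was far below the other peripubertal animals. This name, whose reads equal those of miR-513c, from the X-linked miR-506 family known from the testis, was at 61.6, 479 and 535 RPM against 143, 125, 26.9 and 103 RPM, a value of -1.57 with a standard error of 0.79 (limma, adjusted p = 0.471). Of the 12 names of that family 11 had a lower mean in mature testis, against 158 of all 322 names tested. The family had a median log2 fold change of -0.84 and 0 calls on both scales. DESeq2 called miR-513b and miR-513c lower. miR-510, the most abundant member of the family, was at 635, 1428 and 1818 RPM against 1448, 764, 273 and 743 RPM, and its groups overlapped. The other 34 X-linked names tested had a median of -0.11 and 0 calls.

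A pair of muscle-associated miRNAs, miR-1 and miR-143, was called higher in mature testis after median scaling and not on the deposited scale. miR-1, of striated muscle, was at 1075, 572 and 633 RPM in the peripubertal animals and at 7403, 1917, 1616 and 3858 RPM in the mature ones, without overlap. Its log2 fold change of 2.07 with a standard error of 0.74 did not pass the test on the deposited scale (limma, adjusted p = 0.172). After median scaling miR-1 rose by 2.33 with a standard error of 0.42 (limma, adjusted p = 0.00674), and edgeR with TMM and DESeq2 both called it higher. miR-143, of smooth muscle, was at 2479, 1117 and 2163 RPM against 5953, 5039, 2230 and 6441 RPM, with an overlap at 8104 days. It was called after median scaling, at 1.59 with a standard error of 0.39 (limma, adjusted p = 0.0219), with groups that still overlapped at 1135 and 2355 days. Without 1205 or 1487 days miR-1 no longer passed (adjusted p = 0.0502 and 0.0754 in limma). miR-143 no longer passed without any one of 1205, 1487, 2570, 8104 or 9518 days (limma, adjusted p = 0.0614 to 0.154). The 4 names of miR-143 and miR-145 had a median of 1.04, and the 3 tested muscle names a median of 0.70. Of the latter, miR-206 had the opposite sign, at -1.28 with a standard error of 0.93 (limma, adjusted p = 0.765). miR-133a, which is transcribed with miR-1 in striated muscle, was at 0 to 0.297 RPM in all 7 animals. In immature testis miR-1 ranged from 577 to 3376 RPM and miR-143 from 801 to 9641 RPM.

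Beside these changes stand the markers of other cells that a piece of testis can hold. The 7 tested blood cell miRNAs had a median of 0.50 and 0 calls, and their summed level was 47.5 to 103 RPM in peripubertal and 91.3 to 225 RPM in mature testis. miR-451, of red cells, was at 33.2, 27.2 and 36.6 RPM against 153, 51.0, 43.4 and 23.7 RPM. The endothelial pair miR-126 and miR-126* had a median of 0.71 and 0 calls, with sums of 3.85 to 7.16 and 4.80 to 14.9 RPM. The 2 tested epithelial names had a median of 1.69, and the sum of the list was 7.97 to 9.63 RPM in peripubertal and 21.0 to 64.4 RPM in mature testis. The muscle list summed to 625 to 1094 RPM in peripubertal and 1640 to 7454 RPM in mature testis. Nearly all of that sum was miR-1, described above, so it adds no further marker. miR-205, of stratified epithelia, was at 0 in all 7 animals, and miR-150, of lymphocytes, at no more than 0.297 RPM. On the deposited scale the sums of the epithelial and muscle lists did not overlap between the groups, and those of the blood and endothelial lists did. After median scaling the blood sums no longer overlapped, at 54.6 to 125 in peripubertal and 166 to 261 in mature testis, and the median of the 7 blood names was 0.72 with 0 calls. The scaled sums of the epithelial list were 6.57 to 20.0 against 32.3 to 60.0 and those of the muscle list 553 to 2295 against 3274 to 5982. Those of the endothelial list overlapped, at 4.43 to 15.0 against 7.62 to 25.1. Their part in the changes above was not tested.

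Lists known from spermatogonia and from proliferating cells had no called member on either scale. The 7 tested names described in spermatogonia had a median of -0.04 on the deposited scale and 0.21 after median scaling, with 0 calls. miR-21, the most abundant of them, was at 786, 719 and 1318 RPM against 1955, 1275, 534 and 1555 RPM, and its groups overlapped. The 7 tested autosomal names of miR-17-92 and related clusters had a median of 0.11 on the deposited scale, where their sums overlapped, and of 0.36 after median scaling, where the sums were 388 to 516 in peripubertal and 538 to 701 in mature testis. Of the miR-302 and miR-371 clusters, known from pluripotent cells, miR-371-5p and miR-372 were tested, with medians of 0.84 and 1.10. The sums of that list overlapped on the deposited scale, at 130 to 207 against 185 to 448.8 RPM, and did not after median scaling, at 156 to 274 against 323 to 601. Of the other names described in meiotic or later germ cells, miR-122 had a value of 0.35 and miR-184 of -0.76, and neither passed the test.

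The let-7 family gave the most reads in both groups. let-7f was at 35796, 48268 and 87863 RPM in the peripubertal animals in order of age and at 92334, 38642, 19683 and 52199 RPM in the mature ones. Its value was -0.29 with a standard error of 0.68 on the deposited scale (limma, adjusted p = 0.91) and -0.02 with a standard error of 0.16 after median scaling (limma, adjusted p = 0.922). The 10 tested let-7 names had a median of -0.36 and -0.10 on the 2 scales, and 0 calls on both. On the deposited scale let-7f was highest at 2355 days and lowest at 8104 days, the animals with the highest and the lowest share of listed reads. The 7 tested miR-181 names had medians of -0.43 and -0.21, and the 4 tested miR-29 names 0.39 and 0.61, with 0 calls in both lists. Of the 9 tested neuronal names, 1 was called on the deposited scale and 2 after median scaling: miR-129-5p on both, and miR-129-3p only on the latter.

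**Figure D5:**
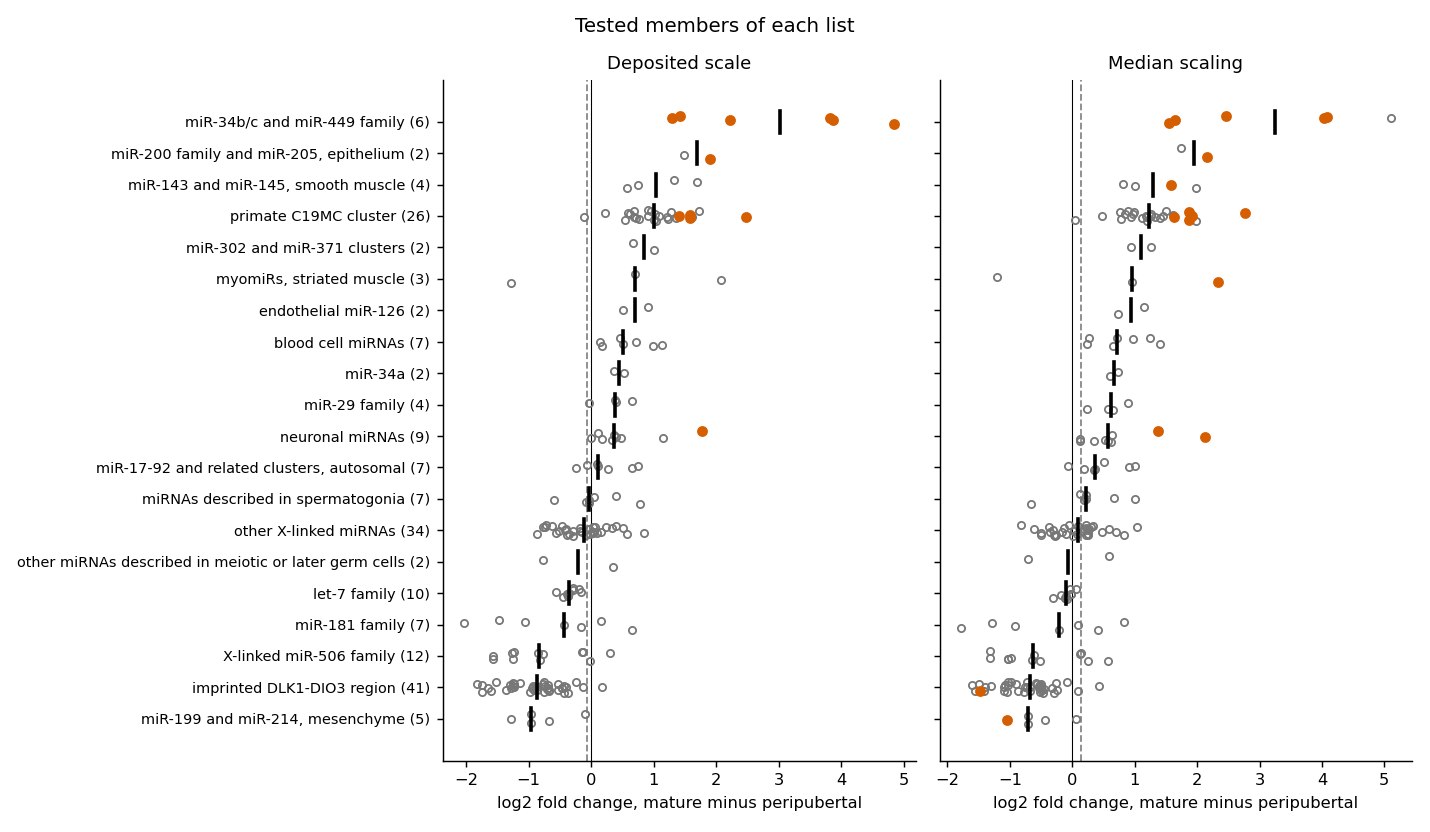
Log2 fold change (mature minus peripubertal, x axis) of each tested member of the lists with at least 2 tested names (y axis, number tested in brackets), on the deposited scale (left) and after median scaling (right); filled points were called, black bars are list medians, and the dashed line is the median over all 322 names. The miR-34 and miR-449 family has medians of 3.02 and 3.25, C19MC of 1.01 and 1.23, and the DLK1-DIO3 region of -0.86 and -0.68.

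Whether the step from peripubertal to mature testis differed from the step before it was tested over all 322 names. No name was called in limma (lowest adjusted p = 0.945), and 10 had an unadjusted p under 0.05. The 14 called names were chosen by the size of the later step, so the sign of their difference is largely fixed by that choice and is not counted here. The earlier step was positive in 11 of the 14, a count that was not made over all names tested. For miR-760 the earlier value was -0.06 and the difference 2.09 with a standard error of 0.80 (limma, adjusted p = 0.945). Both steps share the peripubertal animals, so an animal that is low in that group moves them in opposite directions.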

How the data were processed

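Small RNA was sequenced from testis of 12 rhesus macaques in 14 libraries. Trizol-extracted RNA was size-selected, ligated to adapters, amplified and read on an Illumina Genome Analyzer, per the labels' protocols. CASAVA 1.4 and Bowtie appear in the submitters' processing notes. Their roles, the genome build and the miRNA annotation are each not given in the sources used. RPM values of 538 miRNA names with a human prefix were deposited by the authors. In every library 100% of the values were whole multiples of 1 read within 0.01 reads, so whole reads were recovered. Recovered totals were 3369245 to 5620503 reads in the 8 libraries compared. Among names with at least 1000 reads in all, 2 pairs had reads that agreed within 2% (miR-199a-3p/miR-199b-3p, and also miR-513b/miR-513c). Each pair entered the listed share once. Scarcer names with equal reads, such as miR-527 and miR-520d-5p, were both counted.

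Technical libraries were averaged on the log scale. In R 4.3.3, limma 3.58.1 was fitted, with its trend and robust options, to log2(RPM + 1) of all 12 animals in 3 groups, so that the groups share 1 estimate of the spread. It covered the 322 names that reached 1 RPM in at least 3 animals, and p-values were adjusted by Benjamini-Hochberg (threshold 0.05). Fold changes are on the log2(RPM + 1) scale and understate those of scarce names. The script was tested on simulated data. The exact permutation test used scipy 1.17.1. edgeR 4.0.16 and DESeq2 1.42.0 were run as alternatives on the recovered reads, which are count data, and called 3 and 8 names higher. Median scaling, other pseudocounts and filters, single animals or library numbers left out, and the 7 animals alone were also tried; leaving animals and library numbers out after median scaling was added after the data were seen.

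The members, the 24 miRNA lists and the groups were chosen with earlier results of these data known. The text names up to 20 called names per direction, the first 10 per direction called after median scaling with a mean of at least 10 RPM, the 5 most abundant of each group, the 3 most abundant tested members of each list with all of miR-34b/c and miR-449, and the 6 largest uncalled differences per direction with a mean of at least 10 RPM; the names called by single alternatives, miR-136, miR-133a, miR-150 and miR-205 were chosen after their values were seen. Of the 322 names, 268 matched a macaque miRNA symbol in RefSeq, which was used for gene neighbours only. miR-202 and the sequences of the miRNAs were not analysed here.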

Additional observations from a re-analysis of the deposited data

Results flagged for a closer look

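Among 71 values tested over the 4 mature animals, 4 had 1 animal far from the other 3, by a gap that exceeded Dixon's critical value at 95%. Chance alone gives about 1 in 20 such groups. miR-200a was at 55.5 RPM at 2355 days and at no more than 19.6 RPM in the other mature animals. miR-485-5p, of the DLK1-DIO3 region, was at 189 RPM at 2355 days and at no more than 42.2 RPM in the others. miR-486-5p, known from red blood cells, was at 28.8 RPM at 2355 days and at no more than 11.1 RPM in the others. miR-122 was at 6.05 RPM at 8104 days and at no less than 18.04 RPM in the others. The animal of 2355 days had the highest share of listed reads of the mature animals (33.7%) and that of 8104 days the lowest (9.00%). The part of that share in these values was not tested.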

How the results depend on the processing

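No paired analysis was possible because the labels number only the technical libraries of 2 animals, and no animal is in both groups. The 14 higher calls became 5 with a filter of 10 RPM, 9 without trend and robust settings, 9 in libraries 8 to 14, 0 in libraries 1 to 7, 3 in edgeR with TMM, 0 in edgeR without TMM and 8 in DESeq2; leaving out 1 animal gave 0 to 13. The 0 lower calls became 2 with median scaling, 4 when scaled to the listed reads, 1 in edgeR with TMM and 14 in DESeq2 (70 adjusted p-values not given); leaving out 1 animal gave 0 to 1, the 1 being miR-181d without the animal of 1135 days. The value of miR-34c-5p stayed positive but lost its call at 5.10 with median scaling, 4.95 when scaled to the listed reads, 4.01 in libraries 1 to 7, 2.70 in edgeR with TMM, 3.02 in edgeR without TMM and 2.70 in DESeq2; leaving out 1 animal gave 3.67 to 6.55. The 18 higher calls after median scaling became 0 in libraries 1 to 7 and 33 in libraries 8 to 14, and 1 to 39 when 1 animal was left out. The 2 lower calls on that scale became 0, 8 and, with the 7 animals alone, 6; leaving out 1 animal gave 0 to 12. The difference between the later and the earlier step had 1 call in libraries 8 to 14. No named value changed sign while called. With the 7 animals alone 14 names were called higher on the deposited scale, 13 of them the same. Adding the library number series as a covariate, using either technical library of the animal of 1487 days alone, other pseudocounts and no filter left the higher calls within 1.5 times of 14. Values under 3 reads cannot be told from 0 at this depth.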
